A study of Mus musculus with 2 samples.

Results

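The bone morphogenetic protein (BMP) genes described here are Grem1, Gdf9, Bmp15, Bmpr2, Bmpr1b, Id1, Id2 and Id3, that is 8 of the 29373 gene symbols listed for the libraries together. They were chosen by name as the oocyte ligands, 1 antagonist, 2 receptors and 3 target genes of the pathway, and all 8 were measured. Ovaries of female ICR mice were digested to single cells and profiled by single-cell RNA sequencing on the BD Rhapsody system, which pairs cells with barcoded magnetic beads. The PS-MP library came from mice that were gavaged with 1 mg of 0.1 µm polystyrene microplastics in 100 µL each day for 35 days. Control mice received water (ddH2O) by gavage on the same schedule and gave the control library. In both groups gavage started at 3 weeks of age and the ovaries were taken at 8 weeks. A number of 16 mice is stated without saying whether it holds per group, and the cells were not tied to mice. Each group was therefore 1 sample, so differences between the libraries have no replicate behind them and none was tested.

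GDF9 and BMP15 are TGF-beta family proteins that the oocyte secretes onto the granulosa cells around it. BMP ligands assemble type II receptors such as BMPR2, which binds both oocyte factors, with type I receptors such as BMPR1B, and signal through SMAD1, SMAD5 and SMAD9, whereas GDF9 signals mainly through SMAD2 and SMAD3. Gremlin-1, the product of Grem1, binds BMPs outside the cell and blocks them, and in mice it is made by granulosa and cumulus cells of growing follicles, where GDF9 raises it. ID1, ID2 and ID3 are helix-loop-helix proteins without a DNA-binding region that hold back E-box binding partners, and their genes are classical targets of BMP-activated SMADs.

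The PS-MP library held 15056 cells and 145474989 unique molecules (UMIs), with a median of 8613.5 UMIs per cell, and the control library held 15373 cells and 160257194 UMIs, with a median of 9426. After filtering, 14412 PS-MP and 14538 control cells remained, and 3 barcode labels occurred in both libraries. Clusters were named from lists of marker genes, so the names are given as "-like". Granulosa-like cells made up 7 clusters with 9112 PS-MP and 10235 control cells, all 9 granulosa markers reached 20 CPM in them (UMIs of the gene per 1000000 UMIs of the class), and their markers summed to 14790 CPM in the PS-MP library and 15685 CPM in the control library. Clusters 1, 3, 5 and 10 among them had no granulosa marker among their 10 leading genes, and cluster 5 had the lowest granulosa marker score, so values are also given by cluster number. The luteal-like cells came from different clusters: cluster 6, led by Edn2 and Xpnpep2, held 1899 PS-MP and 6 control cells, and cluster 12, led by Akr1c18 and Ptgfr, held 137 PS-MP and 239 control cells. Cells that nearly all come from 1 library cannot be told apart from an effect of that library, so both clusters are kept apart below. The T/NK-like cluster carried granulosa markers at 7913 CPM in PS-MP and 7650 CPM in control cells, above its own markers, and its values are therefore mixed. Grem1, Bmp15 and Id2 were among the variable genes from which the clusters were made, so their differences between clusters describe the clustering. Leaving all 8 genes out of it gave a granulosa-like Grem1 ratio of 0.2634, against 0.2635 with them.

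Promoter sequences are shown for Grem1 and Id2, whose levels over all cells differed most between the libraries, Id2 mainly through luteal cluster 6. Id3 is added as an Id gene that differed little, and Bmp15 as the oocyte ligand. These sequences show which SMAD and E-box letters lie close to each start. They are the 250 bases before the transcription start in RefSeq on the mouse build GRCm38.p6, whose table matched 6 of the 8 genes, with Id1 and Gdf9 not printed; the deposited counts name a different build, and no count was taken from these coordinates. Capitals mark the GC-rich SMAD element GGCGCC and the SMAD box CAGAC on either strand in Grem1, Id2 and Id3, and the E-box CANNTG in Bmp15.
Grem1 (chr2:113758649-113758898, minus strand): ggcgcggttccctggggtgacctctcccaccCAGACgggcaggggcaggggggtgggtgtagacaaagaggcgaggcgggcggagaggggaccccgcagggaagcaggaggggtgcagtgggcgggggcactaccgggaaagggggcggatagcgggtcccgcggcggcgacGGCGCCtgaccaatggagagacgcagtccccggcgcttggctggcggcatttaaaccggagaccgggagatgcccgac
Id2 (chr12:25096093-25096342, minus strand): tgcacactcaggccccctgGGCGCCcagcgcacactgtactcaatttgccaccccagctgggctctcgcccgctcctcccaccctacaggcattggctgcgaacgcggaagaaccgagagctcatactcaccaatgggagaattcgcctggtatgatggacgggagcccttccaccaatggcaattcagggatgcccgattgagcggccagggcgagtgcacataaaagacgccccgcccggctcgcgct
Id3 (chr4:136143572-136143821, plus strand): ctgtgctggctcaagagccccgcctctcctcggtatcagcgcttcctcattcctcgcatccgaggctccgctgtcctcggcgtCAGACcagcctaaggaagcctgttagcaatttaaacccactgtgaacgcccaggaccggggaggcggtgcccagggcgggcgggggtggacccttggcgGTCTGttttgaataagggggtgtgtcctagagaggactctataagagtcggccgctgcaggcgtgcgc
Bmp15 (chrX:6320725-6320974, minus strand): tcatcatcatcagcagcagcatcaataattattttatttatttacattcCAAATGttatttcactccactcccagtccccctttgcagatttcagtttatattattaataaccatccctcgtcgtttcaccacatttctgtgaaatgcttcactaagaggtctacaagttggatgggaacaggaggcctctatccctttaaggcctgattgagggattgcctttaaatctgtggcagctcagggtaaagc
The Grem1 window held 1 GGCGCC, 78 bases before the start, and 1 CAGAC, 219 bases before it. The Id2 window held 1 GGCGCC, 231 bases before the start, and no CAGAC, with an E-box at 196 bases that is left in lower case, and the Id3 window held 2 CAGAC, 167 and 68 bases before the start, and no GGCGCC. Bmpr2 also had 1 GGCGCC, 105 bases before its start, and the 3 Bmpr1b windows held no GGCGCC but 3 E-boxes in all, with CAGAC found 128 bases before the start of one and 245 before that of another. The Bmp15 window held neither SMAD element and 1 E-box, 201 bases before the start. Over 32851 mouse promoter windows of the same length, 9.59% held GGCGCC, 42.2% held CAGAC and 66.2% held CANNTG, so only the first is a less common run of letters. The windows differed in base composition: 72% of the bases were G or C in Grem1, 62.8% in Id2 and in Id3 and 40.4% in Bmp15, beside a median of 52.4% over all windows. A match of letters is a description of these windows and not a site of binding.

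Gdf9 and Bmp15, the ligands, were by far highest in the oocyte-like cluster, and their summed levels there were close in the libraries. It held 150 of the 252 Gdf9 UMIs and 56 of the 63 Bmp15 UMIs of the PS-MP library, and 162 of 259 and 73 of 92 of the control library. This cluster held 95 PS-MP and 76 control cells, was led by Zp2, Ooep and Nlrp14, and carried oocyte markers at 7340.5 CPM in PS-MP and 8354.5 CPM in control cells. The suspension had passed a 40 µm strainer, which can hold back large oocytes, so the cells are those that went through it. Gdf9 stood at 80.3 CPM (150 UMIs, 95% Poisson interval 68.0 to 94.2) in PS-MP oocyte-like cells and at 78.0 CPM (162 UMIs, 66.4 to 90.9) in control ones, a ratio of 1.03 (0.819 to 1.29). Bmp15 stood at 29.98 CPM (56 UMIs, 22.6 to 38.9) in PS-MP and at 35.1 CPM (73 UMIs, 27.5 to 44.2) in control oocyte-like cells, a ratio of 0.853 (0.592 to 1.23). Both intervals included 1, and all intervals in this text cover counting error only. With a mitochondrial limit of 10% in place of 25%, Gdf9 had a ratio of 1.585, in a cluster that then also carried T/NK markers.

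The oocyte-like cells varied widely among themselves. Of the 95 PS-MP cells, 20 had UMIs of both ligands, 25 of Gdf9 alone, 10 of Bmp15 alone and 40 of neither. Of the 76 control cells, 29 had both, 15 Gdf9 alone, 3 Bmp15 alone and 29 neither. The median depth was 16085 UMIs in PS-MP and 22942 in control oocyte-like cells, and its part in these splits was not tested. Among the deeper cells of each library, 17 of 48 PS-MP and 27 of 38 control cells had both ligands, and among the shallower cells 3 of 47 and 2 of 38 had both. Each library was split at its own median, so these cells are not matched in depth. The deeper cells had a median of 30916 UMIs in PS-MP and 43396 in control, and the shallower ones 8184 and 9681. Single cells reached 15 Gdf9 UMIs in the PS-MP library and 11 in the control library, and 7 and 11 Bmp15 UMIs. The plot of single oocyte-like cells shows that the control cells with 11 and 10 Bmp15 UMIs were shallow cells with under 5 of the 9 oocyte markers. Restricting the cluster to cells with at least 5 markers left 75 PS-MP and 63 control cells. In these, Gdf9 stood at 89.6 CPM in PS-MP and 77.4 CPM in control cells, and Bmp15 at 31.7 CPM in PS-MP and 25.3 CPM in control cells. The Bmp15 ratio thus lay on the other side of 1, at 1.253, in those cells, while it was 0.5304 with each cell of the cluster weighted alike.

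**Figure D1:**
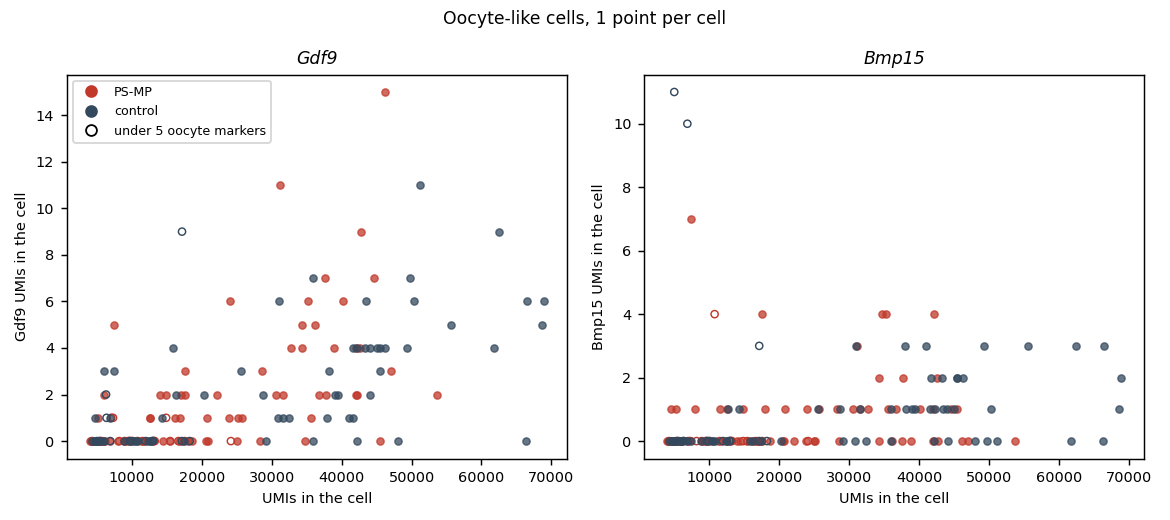
UMIs of Gdf9 (left) and Bmp15 (right) against all UMIs in each oocyte-like cell; each point is 1 cell, PS-MP in red and control in dark blue, and open points have under 5 of the 9 oocyte markers. Cells with no ligand UMI lie mostly at low depth, and 2 shallow open control points hold 10 and 11 Bmp15 UMIs.

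Outside oocytes the ligands were near the limit of counting. Granulosa-like cells had 58 Gdf9 UMIs in the PS-MP library (0.656 CPM) and 77 in the control library (0.700 CPM), and Bmp15 had 5 and 13 UMIs. A Gdf9 UMI was found in 0.626% of PS-MP and 0.723% of control granulosa-like cells, beside 0.462% of PS-MP and 0.362% of control stromal-like cells, which should lack the gene. The median depth was 8952 UMIs in PS-MP and 9915 in control granulosa-like cells, and 7520 in PS-MP and 8530 in control stromal-like cells. The granulosa-like share was above the stromal-like one in both libraries, and by more in the control library. Shares this low are not read as expression, and their source was not tested. The ratio of these counts to other oocyte genes differed from that in oocyte-like cells. Gdf9 came to 31.9% of the UMIs of the zona pellucida genes Zp1, Zp2 and Zp3 in PS-MP granulosa-like cells and 24.4% in control ones, against 2.24% in PS-MP and 1.96% in control oocyte-like cells. The oocyte gene Ooep kept closer to the zona genes, at 59.9% in PS-MP and 56.6% in control granulosa-like cells and 47.7% in PS-MP and 50.1% in control oocyte-like cells. In the mouse GENCODE annotation of GRCm38, no other gene's span overlapped that of Gdf9 or Bmp15; of the 8 genes, Bmpr2 alone shared bases with another model, Gm38125.

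**Figure D2:**
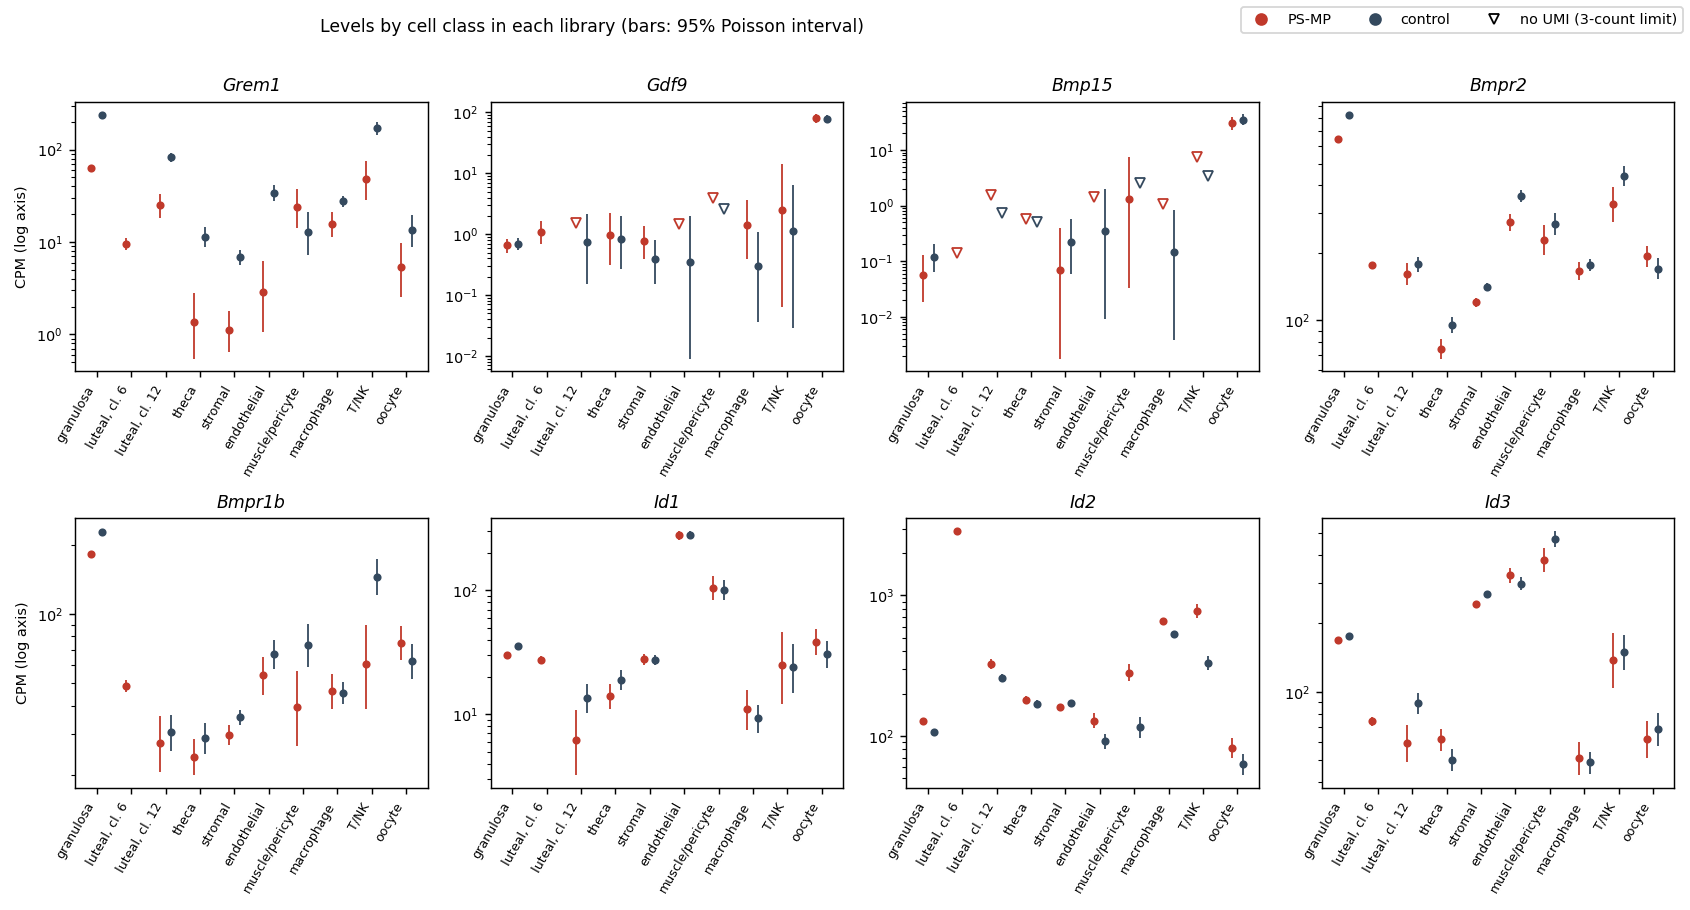
CPM (log axis) of each gene by cell class, PS-MP in red to the left of control in dark blue, with 95% Poisson intervals; open triangles mark a library with no UMI, drawn at the limit of 3 counts, and the 6 control cells of luteal cluster 6 are not drawn. Gdf9 and Bmp15 stand highest in oocyte-like cells, Grem1 in granulosa-like cells, Id1 in endothelial-like cells, and Id2 at 2871 CPM in luteal cluster 6 of the PS-MP library.

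Of the 13 other BMP and GDF ligand genes, 3 reached 20 CPM in granulosa-like cells, and at a threshold of 1.2-fold 0 were higher and 1 was lower in the PS-MP library. Over all 7349 genes with at least 20 CPM in a library, 98 passed 1.2-fold upwards (1.33%) and 317 downwards (4.31%) in PS-MP granulosa-like cells. Bmp3, which encodes an atypical BMP that opposes other BMPs in bone, stood at 166 CPM in PS-MP and 223 CPM in control cells (ratio 0.742). Bmp2, a ligand that granulosa cells of several mammals make, stood at 44.5 CPM in PS-MP and 49.3 CPM in control cells (0.902), and Bmp6, a ligand of both oocytes and granulosa cells in mice, at 31.5 CPM in PS-MP and 26.8 CPM in control cells (1.18). Theca-like cells had Bmp7 at 49.4 CPM in PS-MP and 28.7 CPM in control cells (1.72) and Bmp3 at 16.5 and 25.3 CPM (0.652). In blood endothelial-like cells all 3 ligand genes with 20 CPM passed 1.5-fold downwards in PS-MP cells, where 3.24% of all genes did so and 2.31% passed it upwards. Bmp6 there stood at 9.19 CPM (19 UMIs) in PS-MP and 28.8 CPM (81 UMIs) in control cells, Bmp2 at 61.9 and 98.7 CPM, and Bmp3 at 21.8 and 35.1 CPM in PS-MP and control cells. Bmp6 thus reached 20 CPM through the control library alone. That cluster also carried lymphatic endothelial markers, so it is a mixture of vessel cells. Granulosa markers summed to 1837.5 CPM in PS-MP and 2198 CPM in control cells of it, and to 1547 and 2095 CPM in theca-like cells. The part of this make-up in the ligand values was not tested.

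Grem1, the antagonist, showed the lowest PS-MP over control ratio of the 8 genes in granulosa-like cells, where its level was highest among the classes in both libraries. It stood at 63.2 CPM (5585 UMIs, 95% interval 61.5 to 64.9) in PS-MP granulosa-like cells and at 240 CPM (26381 UMIs, 237 to 243) in control ones, a ratio of 0.263 (0.256 to 0.271). A Grem1 UMI was present in 17.5% of PS-MP and 32.7% of control granulosa-like cells, and in 10.7% and 24.2% once each cell was thinned to 3500 UMIs. The share was 0.898% in PS-MP and 4.63% in control theca-like cells, whose median depths were 7986 and 9862 UMIs and which set the background. At the 1.5-fold threshold Grem1 was thus the 1 member called lower in granulosa-like cells and 0 members were called higher, beside 34 of 7349 genes lower (0.463%) and 4 higher (0.0544%).

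Both the level of Grem1 and its ratio differed from cluster to cluster. The gene was concentrated in cluster 0, led by Inhba and Cyp19a1, and in cluster 7, led by Inhbb and Inhba together with mitotic genes. In cluster 0 it stood at 137 CPM in PS-MP and 652 CPM in control cells (ratio 0.210, 0.201 to 0.218), and in cluster 7 at 190 CPM in PS-MP and 729 CPM in control cells (0.260, 0.246 to 0.276). It was called lower in both, as were 1.86% of the genes tested in cluster 0 and 1.7% in cluster 7. In cluster 1, led by Lrrtm3 and Ntng1, it stood at 51.3 CPM in PS-MP and 80.8 CPM in control cells (0.635), and in the dividing cluster 3 at 18.7 and 40.5 CPM (0.462). Those are calls as well, beside 0.39% of genes lower in cluster 1 and 0.432% in cluster 3, and in cluster 3 Grem1 reached 20 CPM through the control library alone. Clusters 4 (led by Amh), 5 (H19, Rnase1, Galnt15) and 10 (Pcsk6, Car4, Omg) held under 14 CPM in either library. Their ratios were 0.736 (0.562 to 0.957), 0.775 (0.584 to 1.02) and 1.13 (0.541 to 2.28), so Grem1 lay below 1 in 6 of the 7 clusters and its interval in 5. Without clusters 0 and 7 the granulosa-like ratio came to 0.6245.

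**Figure D3:**
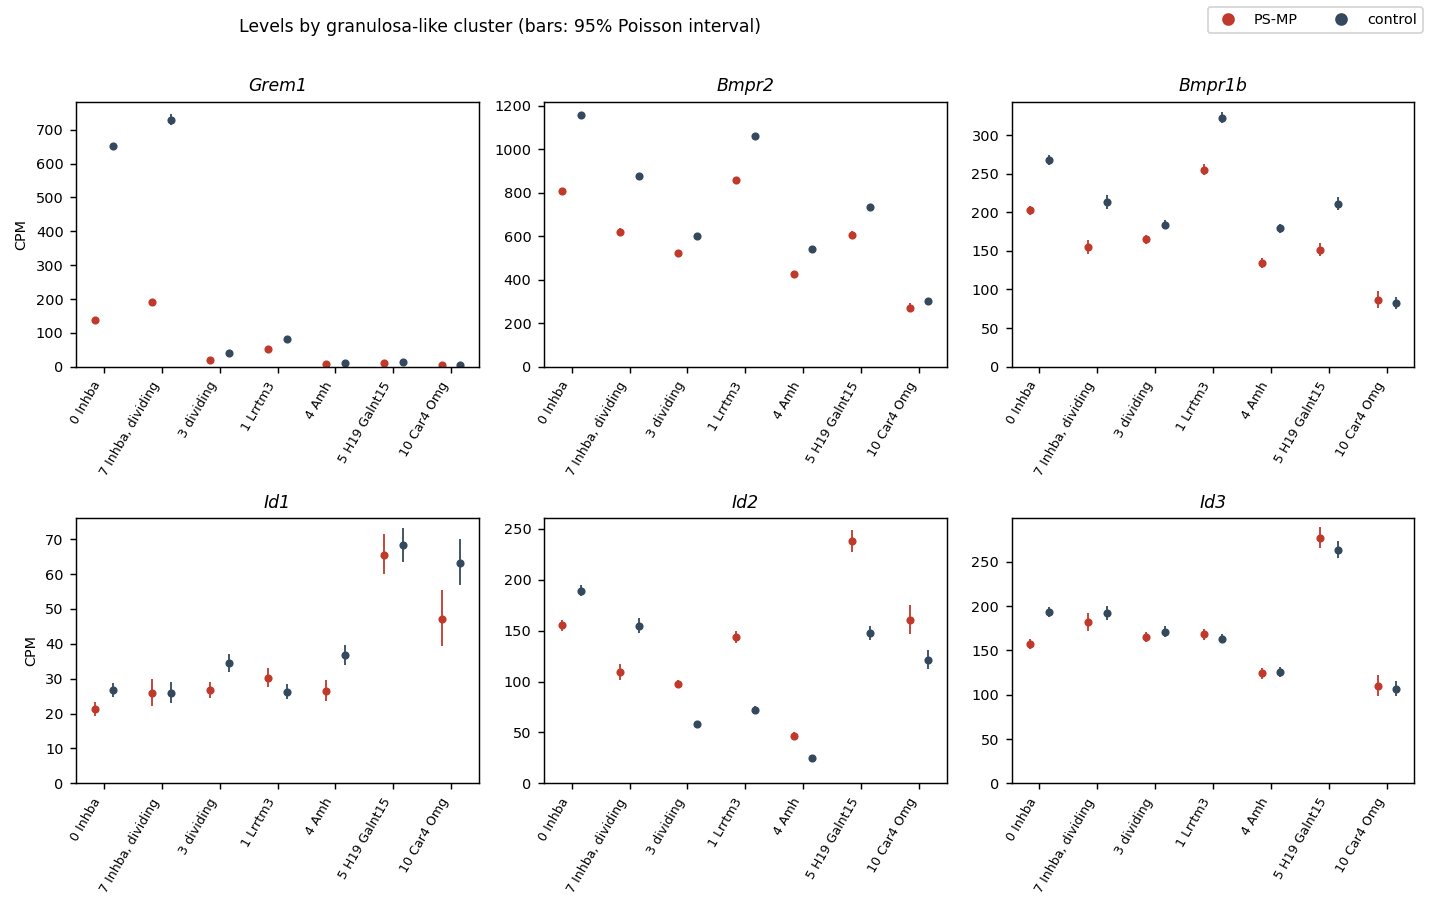
CPM of 6 genes in the 7 granulosa-like clusters, PS-MP in red to the left of control in dark blue, with 95% Poisson intervals; CPM axes start at 0. Grem1 stands at 137 and 190 CPM in PS-MP clusters 0 and 7 and at 652 and 729 CPM in the control ones, Bmpr2 is lower in the PS-MP library in all 7 clusters, and Id2 is lower in clusters 0 and 7 and higher in the other 5.

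Within cluster 0 the Grem1 counts of single cells were as follows. The share of cells with a UMI was 31.9% in PS-MP and 69.3% in control cells, or 21.2% and 57.2% after thinning. The median cell held 0 UMIs in the PS-MP library and 3 in the control library, the 90th percentile was 4 and 18 UMIs, and the highest cell held 35 and 108. In cluster 7 the median was 0 and 6 UMIs, the 90th percentile 8 and 24, and the highest cell held 37 UMIs in the PS-MP and 67 in the control library. The 10% of cells with the most Grem1 held 68.4% of the UMIs of cluster 0 in PS-MP and 45.9% in control, and 58.4% and 35.1% of those of cluster 7. A lower mean count by itself gives more cells at 0 and a larger share in the top cells, so these values do not separate fewer expressing cells from less mRNA per cell. At the finer resolution of 0.8 the PS-MP library placed 160 and the control library 1048 cells in a cluster led by Cyp19a1. Grem1 there stood at 448 CPM in PS-MP and 976 CPM in control cells (0.458, 0.419 to 0.5002), and in the finer clusters led by Inhbb at 123 and 415 CPM (0.296) and at 154 and 698 CPM (0.221). Without the Cyp19a1-led cluster the granulosa-like ratio was 0.3351.

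Inhba, which encodes the beta A subunit of activin and inhibin, had the profile most like that of Grem1. Over 31 points, that is clusters by library with at least 50 cells, and 8040 genes, the Pearson correlation of log2(CPM + 1) with Grem1 was 0.91 for Inhba, 0.88 for Zpld1, 0.87 for Fmn1 and 0.84 for Ext1 and Psd. The points share 2 libraries and the clusters were made from these genes, so the values are descriptions. In most granulosa-like clusters Grem1 was lower in PS-MP cells also when set against Inhba itself. In cluster 0 its UMIs came to 2.48% of those of Inhba in PS-MP and 5.78% in control cells. The shares were 3.36% and 7.74% for cluster 7, 3.84% and 12.1% for cluster 3, and 11.4% and 18.3% for cluster 1. Cluster 10 went the other way, at 7.65% in PS-MP and 5.04% in control cells, on 14 and 24 Grem1 UMIs. Inhba stood at 5513 CPM in PS-MP and 11280 CPM in control cells of cluster 0, so it was lower as well, by less.

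Outside granulosa-like cells Grem1 was low, and in most classes lower in the PS-MP library. Next to granulosa-like cells, control T/NK-like cells had the highest level, at 47.9 CPM in PS-MP and 170 CPM in control cells, in the cluster that carries granulosa markers. Luteal cluster 12 stood at 24.9 CPM in PS-MP and 83.0 CPM in control cells (0.2997, 0.217 to 0.406), and luteal cluster 6 at 9.58 CPM in the PS-MP library. Blood endothelial-like cells had 2.90 CPM (6 UMIs) in PS-MP and 34.1 CPM (96 UMIs) in control cells; the ratio of 0.0851 became 0.28 with doublets retained and 0.3965 with the 10% mitochondrial limit. Stromal-like cells had 1.12 and 6.87 CPM and theca-like cells 1.36 and 11.4 CPM in PS-MP and control. In these 3 classes Grem1 UMIs came to 1.64% to 2.16% of those of Inhba in PS-MP and 4.80% to 8.71% in control cells, beside 2.48% and 5.78% in granulosa cluster 0. Macrophage-like cells had Grem1 at 15.6 CPM in PS-MP and 27.6 CPM in control cells (0.564, 0.396 to 0.787; 0.9373 with the 10% mitochondrial limit). There the share of Inhba was not lower in the PS-MP library, at 6.27% against 5.02% in control cells, nor was it in smooth muscle or pericyte-like cells, at 6.82% against 3.68%. In smooth muscle or pericyte-like cells it rested on 18 PS-MP and 15 control UMIs (1.85, 0.880 to 3.94), and with doublets retained the ratio was 0.8069. Within the oocyte cluster Grem1 stood at 5.35 CPM in PS-MP and 13.5 CPM in control cells, and in its cells with at least 5 oocyte markers at 0.609 and 3.61 CPM. The 20 PS-MP and 13 control cells with fewer markers had 39.8 and 150 CPM, along with granulosa markers at a median of 14818 and 6351 CPM.

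The other extracellular antagonists differed less. Of 15 genes on that list, 7 reached 20 CPM in granulosa-like cells, and past 1.2-fold 0 were higher and 2 lower in PS-MP cells, with a median log2 ratio of −0.12 beside −0.02 over all genes. Crim1, a membrane protein that binds BMPs, stood at 330 CPM in PS-MP and 403 CPM in control cells (0.820). Fst, which encodes the activin binder follistatin, stood at 1054 CPM in PS-MP and 1246 CPM in control cells (0.846). In theca-like cells Fst stood at 41.4 CPM in PS-MP and 63.2 CPM in control cells, and in stromal-like cells Fstl1 stood at 949 and 788 CPM. No antagonist listed there other than Grem1 passed 1.5-fold in granulosa-like cells.

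Bmpr2 and Bmpr1b, the receptors, were highest in granulosa-like cells in both libraries and were lower there in the PS-MP library. Bmpr2 stood at 646 CPM (641 to 651) in PS-MP and 826 CPM (820 to 831) in control granulosa-like cells, a ratio of 0.782 (0.774 to 0.791). Bmpr1b stood at 182 CPM (179 to 185) in PS-MP and 228 CPM (226 to 231) in control cells, a ratio of 0.798 (0.782 to 0.814). Neither passed 1.5-fold, and both passed 1.2-fold. The narrow intervals come from large counts and hold no spread between animals.

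The receptor difference was seen in cluster after cluster. Bmpr2 was below 1 with its interval in all 7 granulosa-like clusters, with ratios of 0.696 in cluster 0, 0.710 in cluster 7 and 0.784 to 0.900 in the others. Bmpr1b was below 1 with its interval in 6 of 7, from 0.719 in cluster 5 to 0.897 in cluster 3, and stood at 86.2 CPM in PS-MP and 82.6 CPM in control cells of cluster 10 (1.04, 0.892 to 1.22). Across the 14 combinations of granulosa-like cluster and library the levels of both receptors ran together, with a Pearson correlation of 0.96, a description over points that share 2 libraries. Grem1 ran with Bmpr2 at 0.79 and with Id1 at −0.66 over the same points. The genes most like Bmpr1b over all 31 points were Esr2, the oestrogen receptor of granulosa cells, at 0.97, then Foxo1, Trim37, Zfp385b and St3gal4 at 0.95 to 0.96. For Gdf9 they were Esrp1 at 0.97 and Dcpp1, Lhx8, Sohlh2 and Ap3b2 at 0.96, of which Lhx8 and Sohlh2 encode transcription factors of mouse oocytes.

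**Figure D4:**
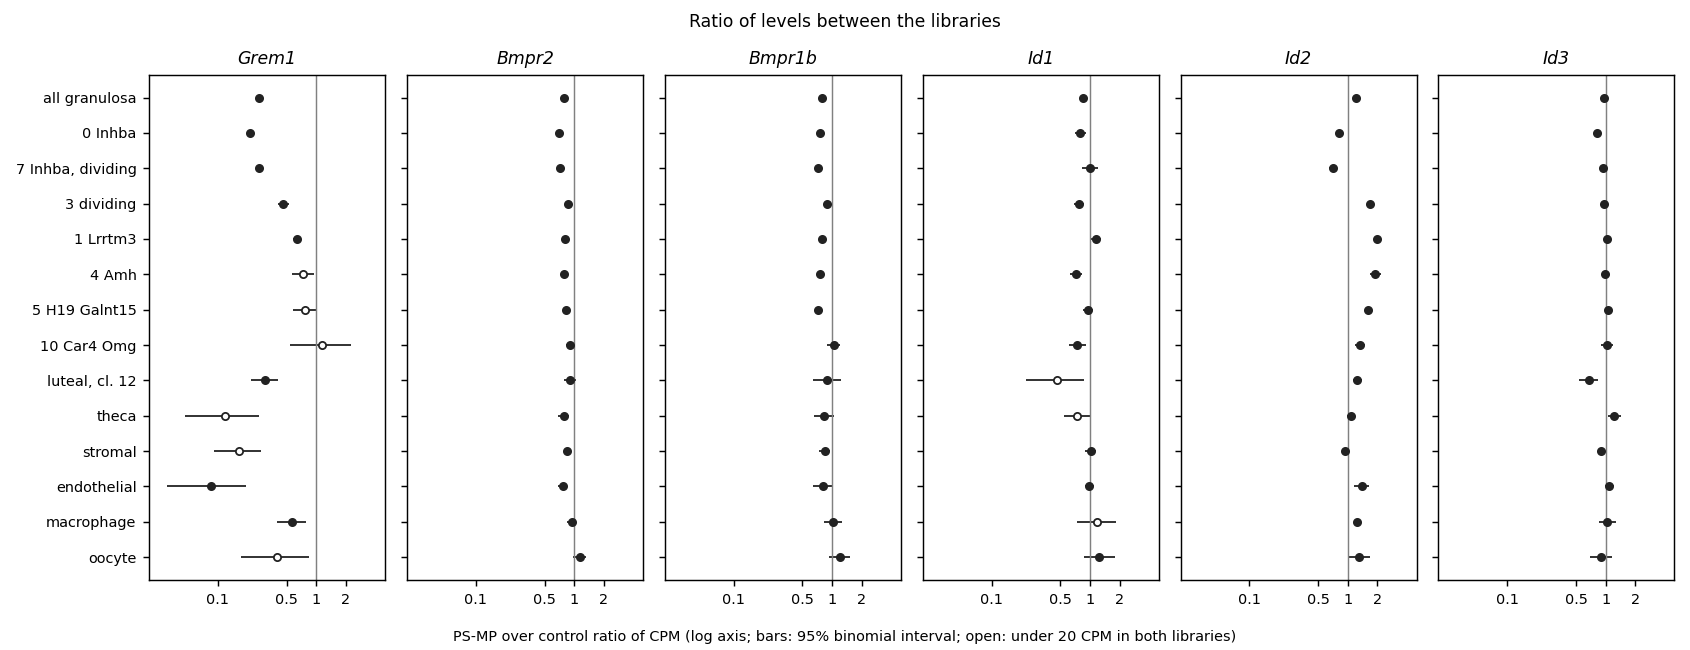
PS-MP over control ratio of CPM (log axis) for 6 genes in granulosa-like cells, their 7 clusters and 6 other cell groups, with 95% binomial intervals; open points had under 20 CPM in both libraries and the grey line marks 1. Grem1 lies left of 1 in all groups drawn but cluster 10, Bmpr2 lies at 0.696 to 0.944 in all groups but oocyte-like cells, and Id2 spans 0.704 to 1.99.

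Other classes had the receptors at lower levels. In blood endothelial-like cells, where BMPR2 is known for its part in vessel walls, Bmpr2 stood at 274 CPM in PS-MP and 357 CPM in control cells (0.766, 0.690 to 0.850). In theca-like cells it stood at 74.8 and 95.9 CPM (0.780, 0.684 to 0.889) and in stromal-like cells at 120 and 141 CPM (0.851, 0.7999 to 0.905). Macrophage-like cells, at 167 CPM in PS-MP and 177 CPM in control cells, had an interval that included 1 (0.944, 0.846 to 1.05). All 4 classes also carried granulosa markers. These summed to 1547 CPM in PS-MP and 2095 CPM in control theca-like cells and to 745 and 811 CPM in stromal-like cells. Endothelial-like cells had 1837.5 and 2198 CPM and macrophage-like cells 2214 and 2358 CPM, beside 14790 and 15685 CPM in granulosa-like cells. The part of granulosa RNA in the receptor values was not tested. In oocyte-like cells both receptors lay above 1 with intervals that included it: Bmpr2 stood at 193 CPM in PS-MP and 170 CPM in control cells (1.13, 0.977 to 1.32), and Bmpr1b at 74.96 and 62.6 CPM (1.198, 0.937 to 1.53). The cells with under 5 oocyte markers held 133 of these 361 Bmpr2 UMIs in the PS-MP library and 122 of 354 in the control library, at 588 and 873 CPM. In the cells with at least 5 markers Bmpr2 stood at 139 CPM in PS-MP and 119.7 CPM in control cells, and Bmpr1b at 65.8 and 54.7 CPM. Over the whole oocyte-like cluster granulosa markers summed to 4231 CPM in PS-MP and 3282 CPM in control cells. Their part in the receptor values was not tested. Whether oocyte-like and granulosa-like cells differ in the receptor ratios was not tested either. With the 10% mitochondrial limit the oocyte-like ratios were 0.7206 for Bmpr2 and 0.7869 for Bmpr1b. The oocyte-like cluster then held 72 PS-MP and 108 control cells and also carried T/NK markers.

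Of the 12 other receptor and co-receptor genes, 6 reached 20 CPM in granulosa-like cells, and past 1.2-fold 0 were higher and 1 was lower. The lower gene was Tgfbr3, which encodes the co-receptor betaglycan, at 80.4 CPM in PS-MP and 97.1 CPM in control cells (0.829); it was named after its value was seen. Bmpr1a, a second type I receptor of BMPs, stood at 122 CPM in PS-MP and 135 CPM in control cells (0.906), and Tgfbr1, the type I receptor that GDF9 uses, at 113 and 125 CPM (0.903). Amhr2, the type II receptor of anti-Müllerian hormone, stood at 210 CPM in PS-MP and 194 CPM in control cells (1.08). The 5 measured SMAD genes had 0 members past 1.2-fold, and their median log2 ratio was −0.01. Smad4, the shared partner, stood at 226 CPM in PS-MP and 219 CPM in control cells.

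**Figure D5:**
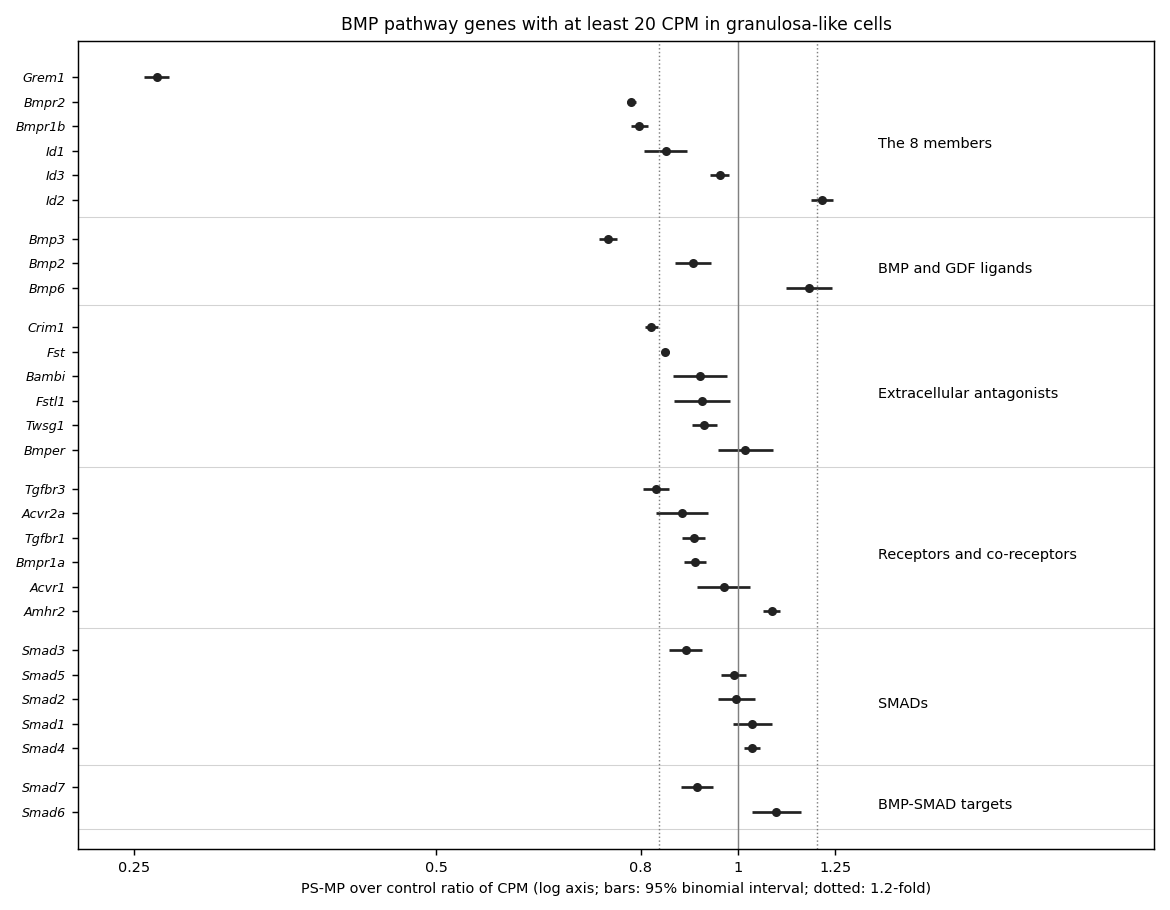
PS-MP over control ratio of CPM (log axis) in granulosa-like cells for the 6 genes described here and for listed pathway genes with at least 20 CPM, grouped by role, with 95% binomial intervals; dotted lines mark 1.2-fold. Grem1 lies at 0.263, apart from all others drawn, which lie between 0.742 and 1.21.

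Id1 and Id3, targets of BMP signalling, were each highest in a vessel-associated class and differed less between the libraries than Grem1. Id1 was highest in blood endothelial-like cells, at 279 CPM (257 to 303) in PS-MP and 283 CPM (263 to 303) in control cells, followed by smooth muscle or pericyte-like cells at 105 and 101 CPM. In granulosa-like cells it stood at 30.2 CPM in PS-MP and 35.6 CPM in control cells (0.847, 0.806 to 0.890). In each library the Id1 interval of oocyte-like cells overlapped that of granulosa-like cells, so no order is given between them. Among granulosa-like clusters Id1 was highest in cluster 5, at 65.6 CPM in PS-MP and 68.2 CPM in control cells, and in cluster 10, at 47.0 and 63.3 CPM. Its ratio lay below 1 with its interval in 4 clusters, the lowest being 0.722 in cluster 4, and above 1 in cluster 1 at 1.15. Efna1, which encodes an ephrin ligand of vessels, was the gene most like Id1 over the 31 points, at 0.91.

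Id3 was highest in smooth muscle or pericyte-like cells, at 380 CPM in PS-MP and 468 CPM in control cells (0.810, 0.700 to 0.936), then in blood endothelial-like cells at 324 and 299 CPM and stromal-like cells at 242 and 270 CPM. In the PS-MP library the intervals of the first 2 of these classes overlapped, and in the control library they did not. In granulosa-like cells it stood at 168 CPM in PS-MP and 175 CPM in control cells, a ratio of 0.959 (0.938 to 0.979). Cluster 0 was the granulosa-like cluster where Id3 differed most, at 158 CPM in PS-MP and 193 CPM in control cells (0.816, 0.780 to 0.854), while in the other 6 clusters the interval included 1. Of the finer clusters that took most of cluster 0, the Inhbb-led one had an Id3 ratio of 0.902 (0.853 to 0.954) and the Cyp19a1-led one a ratio of 1.11 (0.981 to 1.26). Luteal cluster 12 had 59.6 CPM in PS-MP and 89.0 CPM in control cells (0.670, 0.538 to 0.829). The theca-like ratio of 1.23 came to 0.9839 with doublets retained.

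Id2 behaved unlike the other Id genes. Over all cells it stood at 568 CPM in the PS-MP library and 140 CPM in the control library, and most of that came from luteal cluster 6, where it was among the 10 leading genes. That cluster held 61143 of the 79143 Id2 UMIs of the PS-MP library, at 2871 CPM (2848 to 2894), and since it had 6 control cells no comparison can be made in it. Luteal cluster 12, present in both libraries, had 323 CPM in PS-MP and 258 CPM in control cells (1.254, 1.13 to 1.39). Macrophage-like cells had 656 CPM in PS-MP and 533 CPM in control cells (1.23, 1.16 to 1.30).

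In granulosa-like cells Id2 stood at 128 CPM in PS-MP and 106 CPM in control cells, a ratio of 1.21 (1.18 to 1.24), and the clusters went apart beneath that value. Cluster 1 had 144 CPM in PS-MP against 72.3 CPM in control cells (1.99), and cluster 4 had 46.7 against 24.6 CPM (1.90). Cluster 3 had 97.5 CPM in PS-MP against 58.1 CPM in control cells (1.68), and cluster 5 had 238 against 148 CPM (1.61). These 4 pass 1.5-fold, as did 0.404% of the genes tested for cluster 1, 0.41% for cluster 4, 0.488% for cluster 3 and 0.704% for cluster 5. In cluster 10 it stood at 160 CPM in PS-MP and 122 CPM in control cells (1.32, 1.17 to 1.49). The Inhba-led clusters lay below 1: cluster 0 had 155 CPM in PS-MP against 189 CPM in control cells (0.819, 0.782 to 0.857), and cluster 7 had 109 against 155 CPM (0.704, 0.646 to 0.767). At the finer resolution cluster 0 fell mostly into an Inhbb-led cluster, with 1814 of its PS-MP and 1171 of its control cells, and the Cyp19a1-led one, with 158 and 1045. Id2 stood at 158 CPM in PS-MP and 132 CPM in control cells of that Inhbb-led cluster (1.19, 1.12 to 1.26), and at 239 and 272 CPM in the Cyp19a1-led one (0.878, 0.775 to 0.993). A further Inhbb-led cluster took most of cluster 7, along with 230 PS-MP and 156 control cells of cluster 0. It had 102 CPM in PS-MP and 149 CPM in control cells (0.680, 0.630 to 0.732). Of these finer clusters the first Inhbb-led one alone lay above 1, and it also held 106 PS-MP and 100 control cells of cluster 1. The ratios are over whole finer clusters, not over the cells of cluster 0 alone. The granulosa-like ratio of Id2 was 1.679 without clusters 0 and 7, 1.095 without cluster 1 and 6.202 with luteal cluster 6 counted as granulosa-like.

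The other leading genes of luteal cluster 6 were set beside Id2. The PS-MP minus control difference of Id2, as a percentage of its level in cluster 6, was 2.48% in cluster 1, while it was 0.492% to 0.980% for the 9 other leading genes. In cluster 3 it was 1.37%, against 0.133% to 0.583%, and in cluster 5 it was 3.15%, against −5.03% to 1.37%. In these 3 clusters the Id2 value lay above the range of the other leading genes, and the reason was not tested. In clusters 4 and 10 it lay inside their range, at 0.769% and 1.35%, and in clusters 0 and 7 it was negative. It also lay inside the range in oocyte-like cells, at 0.674%, and in blood endothelial-like cells, at 1.26%. In smooth muscle or pericyte-like cells it lay above the range, at 5.80% against −3.24% to 5.68%, and in stromal-like cells below, at −0.362%. The luteal markers were higher together with Id2 in several other classes, but not in stromal-like or theca-like cells. In T/NK-like cells Id2 stood at 778 CPM in PS-MP and 332 CPM in control cells and the summed luteal markers at 2204 and 499 CPM; the Id2 ratio of 2.34 came to 1.156 with the 8 genes left out of the clustering and 1.169 with doublets retained. In smooth muscle or pericyte-like cells Id2 stood at 282 and 115 CPM and the luteal markers at 629 and 268 CPM, and the Id2 ratio of 2.44 came to 4.882 with the 10% mitochondrial limit. In macrophage-like cells the luteal markers stood at 757 CPM in PS-MP and 254 CPM in control cells, and the Id2 difference was 4.29% of its cluster 6 level, within the −5.53% to 5.08% of the other leading genes. In granulosa-like cells as a whole those markers summed to 258 CPM in PS-MP and 309 CPM in control cells. Their part in the Id2 values was not tested.

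Of the 7 other genes listed as BMP-SMAD targets, 2 reached 20 CPM in granulosa-like cells and 0 passed 1.2-fold. Smad7, an inhibitory SMAD, stood at 57.1 CPM in PS-MP and 62.7 CPM in control cells (0.911), and Smad6, the inhibitory SMAD of the BMP branch, at 26.1 and 23.9 CPM (1.09). In blood endothelial-like cells Hey1, a Notch and BMP target of vessels, stood at 107 CPM in PS-MP and 178 CPM in control cells (0.604). It was the 1 of 4 measured targets there past 1.5-fold, beside 3.24% of all genes lower. At 1.2-fold 2 of the 4 were lower, beside 18.6% of all genes.

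Genes known in mice to answer to the oocyte lay on both sides of 1. Of 18 genes that mouse oocytes raise in cumulus cells, such as those of glycolysis and cholesterol synthesis, 14 reached 20 CPM in granulosa-like cells, with 3 higher and 1 lower past 1.2-fold, and a median log2 ratio of 0.11, beside 1.33% of all genes higher and 4.31% lower. The higher ones were Pfkp (1.27), Mvk (1.30) and Tnfaip6 (1.32) and the lower one Npr2 (0.808), named after their values were seen. Mvk, at 20.6 CPM in PS-MP and 15.9 CPM in control cells, and Tnfaip6, at 20.6 and 15.5 CPM, reached 20 CPM through the PS-MP library alone. Aldoa, Ldha and Tpi1, enzymes of glycolysis, stood at 1371, 414 and 357 CPM in PS-MP and at 1192, 347 and 320 CPM in control cells. Of the 3 genes that oocytes hold down, Lhcgr, the luteinising hormone receptor, had 26.4 CPM in PS-MP and 49.6 CPM in control cells (0.533). Cyp11a1, whose enzyme makes pregnenolone from cholesterol, had 105 CPM in PS-MP and 72.0 CPM in control cells (1.46), and Kitl, the KIT ligand, had 82.5 and 78.5 CPM (1.05). Cyp11a1 stood at 6987 CPM in luteal cluster 6 of the PS-MP library, and its granulosa-like difference was 0.469% of that level, beside a median of 0.533% for the leading genes of that cluster. Its ratio was 2.47 in stromal-like, 2.66 in blood endothelial-like and 4.14 in oocyte-like cells, and the part of luteal RNA in these values was not tested.

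Across the 8 genes, 6 reached 20 CPM in granulosa-like cells, and at 1.2-fold 1 was higher (Id2) and 3 were lower (Grem1, Bmpr2 and Bmpr1b), with a median log2 ratio of −0.28, beside 1.33% and 4.31% of all genes. In oocyte-like cells 7 reached 20 CPM and 0 passed 1.5-fold in either direction, where 3.12% of 8337 genes passed it upwards and 3.21% downwards. Past 1.2-fold, 2 were higher there (Id1 and Id2) and 0 lower, beside 15.2% and 17.9% of all genes. Id2 had 81.9 CPM in PS-MP and 62.6 CPM in control oocyte-like cells (1.31, 1.03 to 1.67). Over the alternative runs that ratio ranged from 0.9055 to 1.46. The Id1 interval, 0.881 to 1.78, included 1. So did that of Id3, with 62.1 and 68.8 CPM (0.902, 0.700 to 1.16). In blood endothelial-like cells 6 reached 20 CPM, and Grem1, which did so through the control library alone, was the 1 gene of the 8 past 1.5-fold, downwards, beside 3.24% of all genes. At 1.2-fold the same genes passed there as in granulosa-like cells. Id2 was higher (1.39, 1.17 to 1.66), and Grem1, Bmpr2 and Bmpr1b (0.807, 0.633 to 1.03) were lower. In that class 12.8% of all genes passed 1.2-fold upwards and 18.6% downwards.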

How the data were processed

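Counts of unique molecules per gene and cell were deposited by the authors for 1 PS-MP and 1 control library. Per the submitters' processing notes, GRCm39 and Seurat were used; no aligner or counting setting is stated in these sources. Cells with at least 500 genes and at most 25% mitochondrial UMIs were kept, which left out 286 PS-MP and 519 control cells on the mitochondrial limit, and scrublet at an expected rate of 0.05 marked 358 PS-MP (2.42%) and 315 control (2.12%) cells as doublets, which were removed. Counts were scaled to 10000 per cell and log-transformed. Clustering with scanpy 1.11.5 and leidenalg 0.10.2 used 2000 variable genes, 30 principal components, 15 neighbours, resolution 0.5, seed 1 and no batch correction. Clusters were named from marker lists; the scoring of the lists was set with the counts in view. UMIs were summed per class and library and given as CPM with exact Poisson intervals. PS-MP over control ratios carry exact conditional binomial intervals (scipy 1.17.1). A gene is called at 20 CPM in a library and 1.5-fold, and lists are also counted at 1.2-fold. For shares of cells, each cell was thinned to 3500 UMIs. All intervals are at 95% and cover counting error only. All 8 genes were named, with pathway genes past 1.5-fold in granulosa-like cells, up to 3 highest genes per list and class, and the 5 genes most like 4 of the members. The members and lists were chosen with earlier results of these data known. The procedures were tested on simulated data. Values of 1 listed gene are not reported here.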

Additional observations from a re-analysis of the deposited data

Results flagged for a closer look

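The Id2 ratio of PS-MP over control lay on opposite sides of 1 in granulosa-like clusters, with each library as 1 sample. It was 0.819 in cluster 0 and 0.704 in cluster 7, the clusters led by Inhba and Inhbb. Cluster 1 had a ratio of 1.99 and cluster 4 one of 1.9. Clusters 3 and 5 had 1.68 and 1.61, and cluster 10 had 1.32. The difference between the clusters was not tested. Most PS-MP cells of cluster 0 fell into a finer Inhbb-led cluster whose Id2 ratio was 1.19, while 158 PS-MP and 1045 control cells of cluster 0 fell into a finer Cyp19a1-led one whose ratio was 0.878. Another 230 PS-MP and 156 control cells of cluster 0 fell into a second finer Inhbb-led cluster, with a ratio of 0.680.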

How the results depend on the processing

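No paired analysis was possible because each group was 1 library. With no replicates, none could be left out. The Grem1 ratio in granulosa-like cells (0.263) stayed below 1 under each alternative run. It was 0.239 with a mitochondrial limit of 10%, 0.273 with each cell weighted alike, 0.274 with clusters weighted alike, 0.2202 with luteal cluster 6 counted, and 0.292 without dividing clusters. Among alternatives chosen after seeing the data, it was 0.335 without the finer Cyp19a1-led cluster, 0.625 without the Inhba-led clusters and 0.237 without cluster 1. The Id2 ratio there (1.21) was 1.07 with the 10% limit, 6.20 with luteal cluster 6 counted, 1.28 without dividing clusters, 1.40 without the finer Cyp19a1-led cluster, 1.68 without the Inhba-led clusters and 1.10 without cluster 1. The Gdf9 ratio in oocyte-like cells (1.03) was 1.59 with the 10% limit, in a cluster that then also carried T/NK markers. Of all genes in granulosa-like cells, 4 were called higher and 34 lower; with no minimum level these were 3093 and 5220, at 1.2-fold 98 and 317, and with a minimum of 50 CPM 14 were lower. Of BMP pathway genes past 1.2-fold, 0 were higher and 4 lower, against 6 and 11 with no minimum and 0 lower at 1.5-fold. Members called higher were 0, against 1 with luteal cluster 6 counted and 1 without the Inhba-led clusters. The Grem1 ratio in smooth muscle or pericyte-like cells (1.85) was 0.807 with doublets retained. The share of granulosa-like cells with a Grem1 UMI was 10.7% in PS-MP and 24.2% in control cells after thinning, against 17.5% and 32.7%. The causes of these shifts were not tested. Of 401 alternative values for 42 single-gene results, 355 stayed within the counting interval. That count leaves out Grem1 and Id2 in granulosa-like cells and Gdf9 in oocyte-like cells. Grem1 lay outside its counting interval in 8 of 16 alternatives, Id2 in 6 of 16 and Gdf9 in 1 of 10. Depth limits the ligands outside oocytes and Grem1 in small classes.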
